A study of Mus musculus with 8 samples.

Results

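The 9 genes described here carry or restrain the insulin signal from the cell surface to glucose uptake. They include the receptor gene Insr, the receptor substrate genes Irs1 and Irs2, and the phosphoinositide 3-kinase (PI3 kinase) genes Pik3r1 and Pik3ca. The others are the PI3 kinase inhibitor gene Pik3ip1, the AKT kinase genes Akt1 and Akt2, and Slc2a4, which encodes the glucose transporter GLUT4. The 9 genes were chosen by name, with earlier results of these data known. All 9 were measured, on 12 of the 25697 probes, out of 16593 genes in all. Expression was measured on Illumina bead arrays in the tibialis anterior, a fast hindlimb muscle, of male C57BL/6 mice (a common inbred strain) aged 8 weeks. The 4 spermine oxidase muscles had received a plasmid encoding that enzyme and the 4 control muscles a control plasmid, and all were taken 7 days later. The sources used here do not give the plasmids' promoter or delivery, what the control plasmid encodes or the number of mice, and they state no allele.

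Insulin binding activates the kinase of its receptor, which phosphorylates the receptor substrates. These recruit PI3 kinase, a pair of a regulatory and a catalytic subunit, which makes the membrane lipid that brings AKT to its activating kinases. In skeletal muscle AKT then moves GLUT4 to the cell surface, favours glycogen and protein synthesis, and keeps the FoxO transcription factors out of the nucleus. The arrays measured mRNA, not these activities.

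All values are the log2 signals the authors deposited. They ran from 8.10 to 15.29 with a median of 8.33 over all probes, so that a gene near 8.3 lay close to the floor of the scale, where a difference in signal understates the difference in mRNA. Arrays carry no read depth, and their number limits the precision. Differences are spermine oxidase minus control, with the standard error from limma fitted across all genes, and adjusted p-values are Benjamini-Hochberg values over those genes. Smox itself, the gene on the plasmid, read 10.17 to 11.15 in control muscles and 11.56 to 12.58 in spermine oxidase muscles on its brightest probe, without overlap. That probe differed by 1.16, and the dimmer Smox probes by 1.15, 3.44, 3.30 and 3.34, also without overlap. The size of the Smox difference thus depends on the probe. The 11 measured muscle fibre markers were all bright, with means from 12.73 for Pygm to 15.11 for Pvalb. No label states that each muscle came from its own animal, so p-values cover only the spread among these 8 samples, some of which may be technical.

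Pik3ip1 was the only 1 of the 9 genes whose groups did not overlap, and it was higher in every spermine oxidase muscle. Its protein spans the membrane and binds the catalytic subunit of PI3 kinase, lowering its activity. The control muscles read 8.78, 8.79, 8.74 and 8.66. The spermine oxidase muscles read 9.07, 9.04, 9.09 and 9.004. The highest control muscle therefore lay below the lowest spermine oxidase muscle, and both groups were tight, at 8.74 ± 0.06 and 9.05 ± 0.04 (SD, n = 4 each). The difference was 0.31 ± 0.03, with a 95% interval of 0.23 to 0.39, or 1.24-fold on the deposited scale. In the fit across all probes, some dimmer Smox probes had smaller unadjusted limma p-values (1.28e-05 and 1.37e-05) than Pik3ip1 (2.13e-05). On the brightest probe of each gene, Pik3ip1 ranked 1 of 16593 genes by p-value. It still missed the threshold of 0.05 with a limma adjusted p = 0.147. A two-sided exact permutation test on all 70 splits of the muscles gave p = 0.0286, the smallest it can give with 4 against 4. That test makes no allowance for the choice of the gene. When a floor was subtracted on the linear scale before taking logs, with an offset of 16 units, the difference was 0.68 ± 0.11 (limma adjusted p = 0.0756), so its size depends on how the background is treated. By replicate number, which no label ties to a mouse, the differences were 0.28, 0.25, 0.35 and 0.34. Pik3ip1 has 1 probe, ILMN_2769772, and its 8-array mean was above that of 71.2% of probes. In a whole muscle, more RNA per cell and more cells of a type that makes the RNA cannot be told apart.

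**Figure D1:**
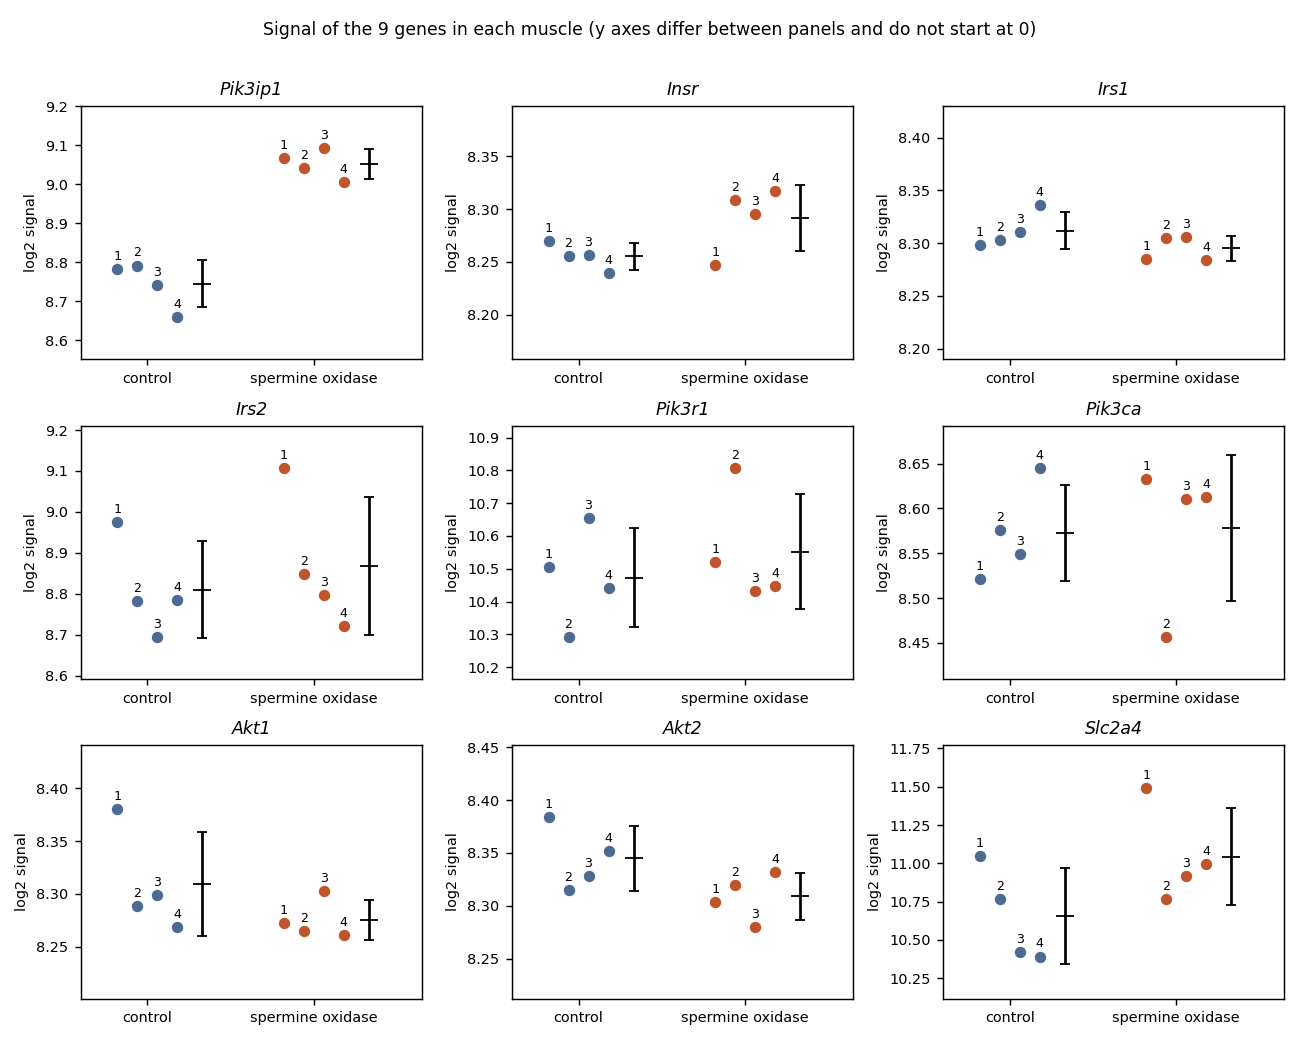
Log2 signal (y axis, scaled for each panel) of the brightest probe of each of the 9 genes in 4 control muscles (blue) and 4 spermine oxidase muscles (orange), with replicate numbers and the mean ± SD in black. Only in the Pik3ip1 panel do the groups separate, at 8.66 to 8.79 against 9.004 to 9.09.

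The 250 bases before the transcript start listed for Pik3ip1 are shown because this was the gene whose groups separated. This start lies inside the gene as RefSeq lists it, downstream of the gene's first base. The window is chr11:3330481-3330730 on the plus strand of GRCm38.p6, as RefSeq lists it, and 53.6% of its bases are G or C. Any match to the FoxO core GTAAACA, the insulin response element core CAAAACA or the E-box CACGTG, each read on both strands, would be in capitals. None of the 3 occurs in this window, which says nothing of other parts of the gene.
Pik3ip1: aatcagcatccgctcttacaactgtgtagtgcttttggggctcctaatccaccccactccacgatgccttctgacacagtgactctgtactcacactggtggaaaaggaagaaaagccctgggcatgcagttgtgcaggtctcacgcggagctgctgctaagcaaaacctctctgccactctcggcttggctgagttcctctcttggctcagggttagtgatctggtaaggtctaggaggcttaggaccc

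The receptor and its substrates showed no difference beyond the spread between muscles. Insr, the insulin receptor, read 8.27, 8.26, 8.26 and 8.24 in control muscles. It read 8.25, 8.31, 8.30 and 8.32 in spermine oxidase muscles, of which 3 lay above every control muscle and replicate 1 lay among them. The difference was 0.04 ± 0.02, with an interval of -0.01 to 0.08 (limma adjusted p = 0.570, exact permutation p = 0.114). Irs1, a substrate that links the receptor to PI3 kinase in muscle, read 8.30, 8.30, 8.31 and 8.34 against 8.29, 8.30, 8.31 and 8.28, and these ranges overlapped. Its difference was -0.02 ± 0.02, with an interval of -0.05 to 0.02. Both probes lay at the floor, so these narrow intervals bound the signal and not the mRNA. After the floor was subtracted as above, Insr differed by 0.21 ± 0.12 and Irs1 by -0.09 ± 0.10.

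Irs2, the other main substrate, differed more among the muscles of a group than between the groups. It read 8.98, 8.78, 8.70 and 8.79 in control muscles and 9.11, 8.85, 8.80 and 8.72 in spermine oxidase muscles. Replicate 1 was the highest muscle of each group, and the ranges overlapped. The difference was 0.06 ± 0.09, with an interval of -0.16 to 0.27 (limma adjusted p = 0.869), and it was -0.02 without spermine oxidase replicate 1. By replicate number it was 0.13, 0.06, 0.10 and -0.07.

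The starts of Irs1 and Irs2 are shown beside that of Pik3ip1 because, of the 7 genes with a listed start, only these hold the E-box and the insulin response element core. No start was matched for Insr and Slc2a4. The Irs1 window is chr1:82291440-82291689 and the Irs2 window chr8:11008930-11009179, both on the minus strand of GRCm38.p6 as listed in RefSeq, written 5′ to 3′. Capitals mark the E-box CACGTG and the insulin response element core, here in its reverse complement TGTTTTG.
Irs1: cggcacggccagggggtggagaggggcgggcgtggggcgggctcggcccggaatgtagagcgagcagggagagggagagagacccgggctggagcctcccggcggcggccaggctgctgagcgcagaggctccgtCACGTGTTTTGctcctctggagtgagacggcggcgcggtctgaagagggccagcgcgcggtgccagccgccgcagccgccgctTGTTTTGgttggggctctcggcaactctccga
Irs2: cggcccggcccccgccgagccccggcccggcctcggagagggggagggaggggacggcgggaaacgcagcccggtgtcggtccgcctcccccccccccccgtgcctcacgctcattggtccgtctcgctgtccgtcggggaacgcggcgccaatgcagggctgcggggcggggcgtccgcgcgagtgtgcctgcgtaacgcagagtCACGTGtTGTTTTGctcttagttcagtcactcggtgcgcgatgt
In Irs1 the E-box and the first TGTTTTG share bases, and a second copy lies nearer the start, whereas in Irs2 they are set apart by a single base. Over 32851 windows of this length before listed gene starts, 5.56% hold CAAAACA, 6.02% hold CACGTG and 3.17% hold GTAAACA, on either strand. GTAAACA occurs in 1 of the 12 windows of these genes, at Akt1. The letters were chosen after the values were known, and a match is a description and not a binding site.

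The PI3 kinase subunits showed no difference beyond the spread between muscles. Pik3r1 encodes the regulatory subunit p85 alpha and its shorter forms. Its brightest probe, ILMN_3114641, read 10.50, 10.29, 10.66 and 10.44 in control muscles and 10.52, 10.81, 10.43 and 10.45 in spermine oxidase muscles. Spermine oxidase replicate 2 was the highest muscle and control replicate 2 the lowest, and the other 6 were interleaved. The difference was 0.08 ± 0.10, with an interval of -0.16 to 0.32 (limma adjusted p = 0.837), and without spermine oxidase replicate 2 it was -0.01. The interval holds both no difference and one as large as that of Pik3ip1. The second probe, ILMN_2473531, differed by 0.00 ± 0.11 in the fit across all probes. It repeated the position of the number 2 muscles, at 9.98 in control and 10.48 in spermine oxidase. The third, ILMN_3040050, lay at the floor at 8.22 in both groups.

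Pik3ca, the catalytic subunit p110 alpha to which the Pik3ip1 protein binds, read 8.52, 8.58, 8.55 and 8.65 in control muscles. In spermine oxidase muscles it read 8.63, 8.46, 8.61 and 8.61, with replicate 2 below all other muscles. Its difference was 0.01 ± 0.05, with an interval of -0.10 to 0.11 (limma adjusted p = 0.978). With an 8-array mean of 8.58, Pik3ca was not far above the floor, so the interval bounds the signal more closely than the mRNA. Across Pik3r1 and Pik3ca, spermine oxidase replicate 2 was thus the highest muscle for the regulatory subunit and the lowest for the catalytic subunit.

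The AKT kinases lay at the floor on all 3 of their probes. Akt1 read 8.38, 8.29, 8.30 and 8.27 in control muscles and 8.27, 8.26, 8.30 and 8.26 in spermine oxidase muscles. Akt2, the form most tied to insulin-driven glucose uptake, read 8.38, 8.31, 8.33 and 8.35 against 8.30, 8.32, 8.28 and 8.33. The ranges overlapped for both, and control replicate 1 was the highest muscle for each. The differences were -0.03 ± 0.03 for Akt1 and -0.04 ± 0.02 for Akt2 (limma adjusted p = 0.715 and 0.603), and the dimmer Akt2 probe differed by 0.01 ± 0.02. With the floor subtracted they were -0.18 ± 0.13 and -0.18 ± 0.11. At this signal a difference in AKT mRNA could not be bounded.

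Slc2a4 had the largest difference of the 9 genes, and the widest interval, on the deposited scale with all 8 muscles. After the floor subtraction its difference, 0.45 ± 0.20, was smaller than the 0.68 of Pik3ip1. GLUT4, its product, is the insulin-responsive glucose transporter of muscle and fat. The control muscles read 11.05, 10.77, 10.42 and 10.39. The spermine oxidase muscles read 11.49, 10.76, 10.92 and 10.99. Spermine oxidase replicate 1 lay above all others, while control replicate 1 exceeded 3 of the 4 spermine oxidase muscles, so the groups overlapped. The means were 10.66 ± 0.31 and 11.04 ± 0.32 (SD, n = 4 each). The difference was 0.39 ± 0.20, or 1.31-fold, with an interval of -0.07 to 0.84 (limma adjusted p = 0.540, exact permutation p = 0.200). It was 0.24 without spermine oxidase replicate 1 and 0.15 without that muscle and control replicate 4. By replicate number the differences were 0.45, 0.00, 0.50 and 0.60. The interval holds both no difference and one larger than that of Pik3ip1.

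Markers of other cell types were set beside these genes, since GLUT4 is also made by fat cells. Of 6 measured adipocyte markers 5 were higher in spermine oxidase muscles, and their summed linear signal ran from 1935 to 2208 in control and from 2304 to 2438 in spermine oxidase muscles. Plin1, Lep, Cidec, Fabp4 and Retn lay below a mean of 8.5. Adipoq, the adiponectin gene, was the adipocyte marker whose groups separated, with means of 9.02 and 9.56. Of 11 fibre markers 9 were higher, with sums of 253680 to 275570 and 271610 to 287960, which overlap. All 6 endothelial markers were higher, with sums of 3818 to 4076 and 3942 to 4671. Satellite cell and regeneration markers were lower in 5 of 6 cases, with sums of 48122 to 62453 in control and 17201 to 44140 in spermine oxidase muscles. Most of each sum was the signal of Myh8 and Myl4, with means of 14.26 and 13.90 and differences of -1.28 and -0.87. Myod1 and Myog differed by -0.16 and -0.49, with overlap. Pax7 and Myf5, near the floor, differed by -0.009 and 0.006. Macrophage markers were evenly divided, 3 of 6 higher, with sums of 14601 to 24371 and 11058 to 17339. Fibroblast and tendon markers were also 3 of 6 higher, with sums of 23975 to 28593 and 23509 to 27173. Nerve markers were higher in 2 of 3, with sums of 2273 to 2740 and 2266 to 3090. Groups also separated upward for the fibre markers Pvalb and Pygm, the endothelial Pecam1 and Tek, the macrophage Cd163 and the tendon Fmod. Downward separation was seen for the regeneration markers Myh8 and Myl4. Of all genes, 3.66% separated upward and 2.51% downward. The part of any of these cell types in the Pik3ip1 and Slc2a4 values was not tested.

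Across the 9 genes, 0 passed the adjusted threshold in limma, as did 0% of all 16593 genes, of which 1833, or 11.0%, had an unadjusted p under 0.05. Pik3ip1 was the 1 member among those, on the higher side, where 6.33% of all genes stood. On the lower side there were 0 of 9 against 4.72% of all genes. The groups separated upward for 1 of 9 genes against 3.66% of all genes, and downward for 0 of 9 against 2.51%. Of the 9 differences, 6 were positive and 3 negative, with a median of 0.04, where the median of all genes was -0.00064. The count of separated members rests on 1 gene, in a list chosen with earlier results of these data known.

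**Figure D2:**
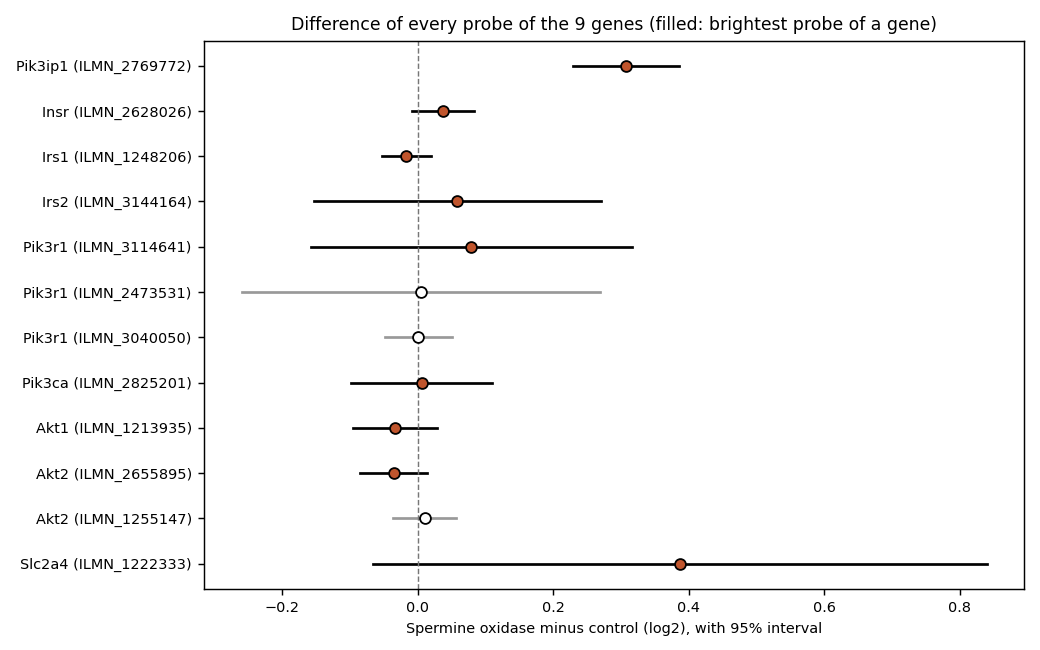
Difference between spermine oxidase and control muscles (x axis, log2) for each of the 12 probes, with 95% intervals from limma fitted across all probes (4 muscles in each group). The Pik3ip1 interval is the only 1 that leaves out 0, and the Slc2a4 interval is the widest.

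The other genes of the pathway, listed by role, also gave no gene past the threshold: 0 of 84 measured in limma, with 46 higher and 38 lower and a median difference of 0.01. Of all 16593 genes, 8171 were higher and 8422 lower. An unadjusted limma p under 0.05 was found for 9 of the 84 on the higher and 6 on the lower side, against 6.33% and 4.72% of all genes. The groups separated upward for 5 and downward for 4 of the 84, against 3.66% and 2.51% of all genes. These lists too were chosen with earlier results of these data known. The receptor adaptors and brakes were lower in 11 of 14 cases, with a median of -0.04. Grb10, an adaptor that binds the insulin receptor and dampens its signal, read 12.45, 12.21, 12.21 and 12.75 in control muscles. It read 11.41, 11.57, 11.35 and 12.15 in spermine oxidase muscles, so that replicate 4 was the highest of each group and the groups did not overlap. The difference was -0.79 ± 0.20 (limma adjusted p = 0.251). Shc1, an adaptor to the RAS pathway, also separated, with a difference of -0.28 ± 0.10, but its 3 dimmer probes lay at the floor and differed by -0.03 to -0.004. Cav3, the muscle caveolin, differed by -0.27 ± 0.09 and Socs3, a feedback inhibitor of cytokine and insulin signalling, by -0.40 ± 0.24, both with overlap.

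The lipid-handling enzymes differed little. The other PI3 kinase subunits and adaptors were lower in 7 of 8 cases, none separating, with differences from -0.10 to 0.002. Among them were Pik3r3, another regulatory subunit (-0.10 ± 0.11), Pik3ap1, an adaptor of immune cells (-0.07 ± 0.04), the class III enzyme gene Pik3c3 (-0.04 ± 0.03) and Pik3c2a, of class II (-0.03 ± 0.02). The lipid phosphatases and AKT inhibitors were lower in 7 of 9 cases, with a median of -0.01. Trib3, a pseudokinase reported to bind AKT, separated the groups at the floor with a difference of only -0.04 ± 0.02. Inpp4a, a phosphatase of PI3 kinase lipids, differed by -0.06 ± 0.02, Inppl1, the phosphatase SHIP2, by -0.12 ± 0.10, and Trib2 by 0.12 ± 0.06, all with overlap.

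Kinases around AKT were higher in 8 of 10 cases, with a median of 0.06 and no separation. Sgk1, a kinase related to AKT, differed by 0.17 ± 0.06, and Pdpk1, which phosphorylates AKT, by 0.17 ± 0.10 on its brightest probe and by 0.001 ± 0.10 on the other. Rictor and Mlst8, subunits of the kinase complex that also phosphorylates AKT, differed by 0.06 ± 0.04 and 0.06 ± 0.05. The AKT substrates were higher in 10 of 13 cases, with a median of 0.05. Foxo1, a FoxO transcription factor, read 8.94, 8.93, 9.05 and 8.92 against 9.13, 9.12, 9.002 and 9.19, overlapping through spermine oxidase replicate 3 (0.15 ± 0.05, limma adjusted p = 0.297). Bad, a cell death protein, separated downward (-0.15 ± 0.05). Gsk3a, a glycogen synthase kinase, separated upward near the floor, at a mean of 8.40 (0.06 ± 0.02). Akt1s1, a regulator of mTOR, differed by 0.15 ± 0.08 with overlap.

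The genes of GLUT4 traffic and glucose uptake were higher in 11 of 16 cases, with a median of 0.03. Hk2, the hexokinase that traps the glucose GLUT4 brings in, read 13.14, 12.91, 12.85 and 12.83 in control muscles. It read 13.49, 13.15, 13.23 and 13.14 in spermine oxidase muscles, just above the control range in its lowest muscle. The difference was 0.32 ± 0.10 (limma adjusted p = 0.292). Exoc7, an exocyst subunit that tethers GLUT4 vesicles, separated by a similarly small margin, with a difference of 0.40 ± 0.12 (limma adjusted p = 0.286). Stxbp3, a regulator of vesicle fusion, separated at the floor (0.04 ± 0.02), and Rac1, a GTPase of GLUT4 translocation, overlapped (0.11 ± 0.05).

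FoxO targets were higher in 11 of 14 cases, with a median of 0.07. The ubiquitin ligase gene Fbxo32 read 9.80, 9.56, 9.70 and 9.47 in control muscles and 10.79, 10.22, 10.60 and 9.77 in spermine oxidase muscles. Spermine oxidase replicate 4 fell within the control range. The difference was 0.71 ± 0.21 (limma adjusted p = 0.292), and the dimmer probes differed by 0.54 ± 0.13 and 0.28 ± 0.14, the first of them without overlap of the groups. Trim63, another ubiquitin ligase gene, differed by 0.50 ± 0.13 and also overlapped through replicate 4. Gadd45a, a stress gene, differed by 0.35 ± 0.21, with spermine oxidase replicate 2 at 11.73 and the others of its group at 10.75 to 10.90. Ctsl, a lysosomal protease gene, separated at the floor (0.07 ± 0.03).

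**Figure D3:**
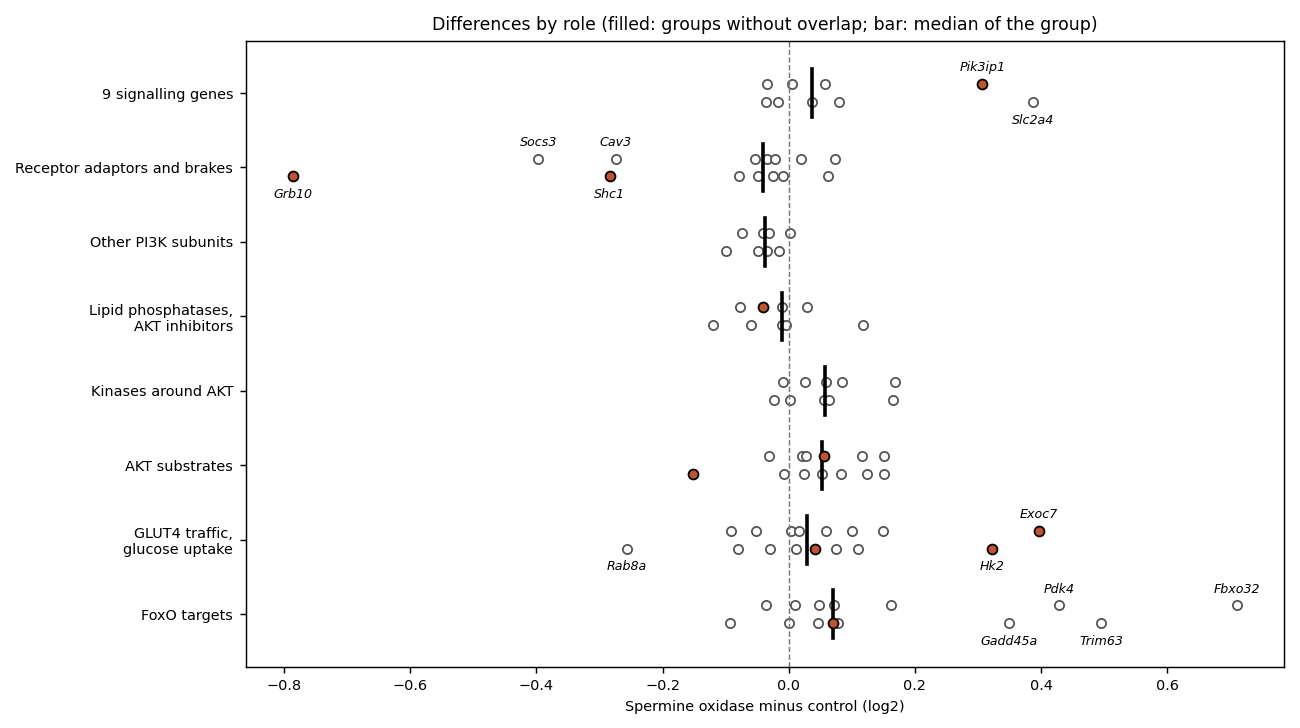
Difference of each measured gene (x axis, log2) for the 9 genes and 7 other groups of the pathway, with filled points where the 4 control and 4 spermine oxidase muscles did not overlap and a bar at the group's median. Genes beyond 0.25 in size are named, and Grb10, at -0.79, is the farthest from 0.

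Among the 8295 other genes with a mean above the median gene, those most like Pik3ip1 across the 8 muscles were Pcolce2, an enhancer of procollagen processing (Pearson r = 0.977), the vesicle fusion gene Vamp7 (r = 0.977) and Gclm, which encodes the modifier subunit of glutamate-cysteine ligase, an enzyme of glutathione synthesis (r = 0.971). All 3 were higher in every spermine oxidase muscle than in any control muscle, with differences of 0.35, 0.21 and 0.30. They were picked for likeness to a gene whose groups separated, so their separation largely follows from the choice. With the mean of a gene's probes, the Vamp7 difference was 0.10. Those most like Slc2a4 were Perm1, a muscle regulator of mitochondrial genes (r = 0.989), Mcee, a mitochondrial epimerase (r = 0.987), and Tarsl2, a threonyl-tRNA synthetase (r = 0.985). With Slc2a4 they were highest in spermine oxidase replicate 1 and low in control replicates 3 and 4, and their groups overlapped. These likenesses are descriptions over 8 muscles whose values come from the same arrays.

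**Figure D4:**
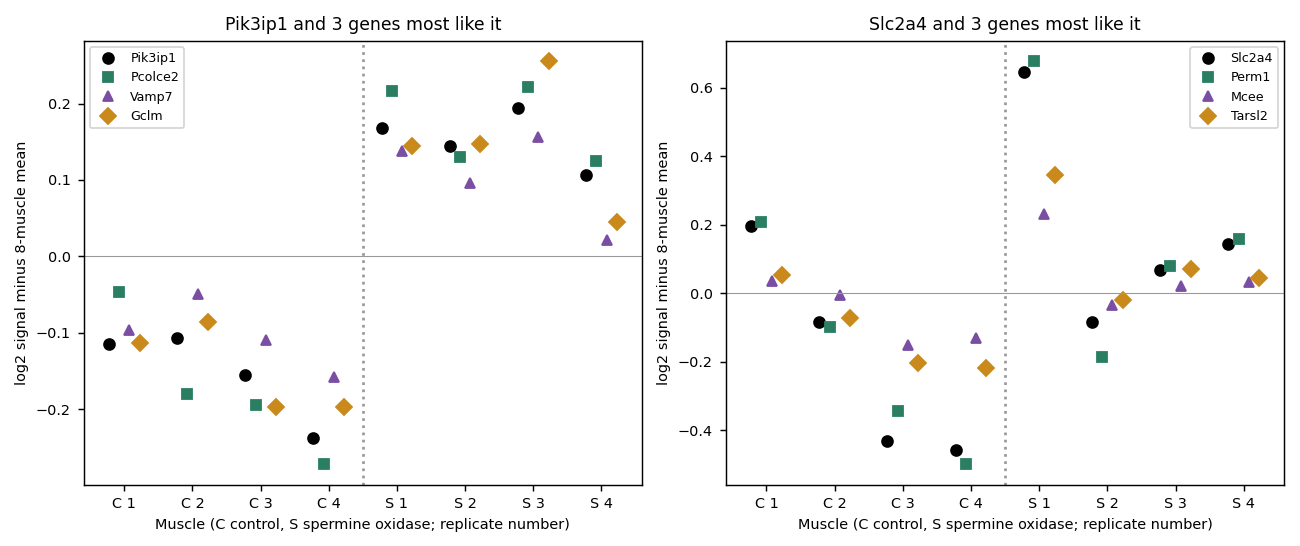
Log2 signal minus the 8-muscle mean (y axis) in each muscle (x axis) for Pik3ip1 and Slc2a4, each with the 3 genes of the most similar pattern. The Pik3ip1 set lies below 0 in all 4 control muscles and above 0 in all 4 spermine oxidase muscles, while the Slc2a4 set peaks in spermine oxidase replicate 1.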

How the data were processed

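Total RNA of 8 tibialis anterior muscles was amplified, labelled with biotin and read on Illumina bead arrays, per the labels' protocols. The values are log2 signals as the authors deposited them. Values of equal rank lay within 0.155 of each other on all arrays, so they had been normalized between arrays. The sources used here give no method, background treatment, detection calls or software. GEO's platform annotation named 23978 of 25697 probes, 0 symbols needed an update through RefSeq (GRCm38.p6), and each of 16593 genes was represented by its brightest probe over the 8 arrays. No dim probe was removed.

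Muscles were grouped by title, 4 control and 4 spermine oxidase, and compared in R 4.3.3 by limma 3.58.1 (two-sided lmFit and eBayes, Benjamini-Hochberg over all genes, threshold 0.05), without a replicate block. Single probes come from the same fit on all 25697 probes, and exact permutation tests used the 70 splits. The limma script was also run on simulated data, with an outcome not reported here. The members, 7 pathway lists and 7 marker lists were chosen with earlier results of these data known. Of 146 list entries 18 were not analysed here. Named were all members, the up to 4 pathway genes of each list with the smallest p-values, any passing with or without the block, and the 3 genes most like Pik3ip1 and Slc2a4. The mean of 8.5 used as near the floor was set after the values were seen. Alternatives were other normalizations, probe rules, filters, variance models (array weights with statmod 1.5.0), a floor subtraction, the block and leaving out muscles. Plots used matplotlib 3.10.9 in Python 3.11.15.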

Additional observations from a re-analysis of the deposited data

Results flagged for a closer look

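Each group of 4 was screened for a muscle whose gap to the nearest other, divided by the group's range, exceeded Dixon's 95% critical value, for the 12 probes of the 9 genes and the 28 other pathway genes named. Of 80 groups 5 were marked, where chance gives about 1 in 20. Among the 9 genes it was Pik3ca, for which spermine oxidase replicate 2 read 8.46 and the other spermine oxidase muscles 8.61 to 8.63. Control replicate 4 stood apart for Shc1, at 12.15 against 11.82 to 11.84, and control replicate 1 for Pik3ap1, at 8.48 against 8.55 to 8.56. Spermine oxidase replicate 4 was low for Trim63, at 9.71 against 10.13 to 10.15, and spermine oxidase replicate 2 was high for Gadd45a, at 11.73 against 10.75 to 10.90.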

How the results depend on the processing

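The replicate numbers of the titles did not meet the test for pairs, which needed every same-numbered pair to be alike. After removal of the group means, same-numbered muscles correlated across genes at 0.60, -0.14, 0.67 and 0.60. Muscles numbered 1, 3 and 4 matched best with their same-numbered muscle, and the number 2 muscles did not. Whether equal numbers mark 1 mouse cannot be told from the labels. With the replicate number as a block, limma called 266 of 16593 genes, or 1.60%, and 1 of the 9 members, Pik3ip1 (adjusted p = 0.0222). Of the other pathway genes it called Grb10 (0.0302), Cav3 (0.0363), Hk2 (0.0256) and Trim63 (0.0284). No other alternative called a member. The count of all genes was 8 with an intensity trend and robust prior (Pik3ip1 adjusted p = 0.0525), 1 after floor subtraction, and 0 to 14 when muscles were left out, 14 coming without spermine oxidase replicate 2. The cause was not tested. Pik3ip1 stayed positive under all 20 alternatives, at 0.27 to 0.68, with adjusted p-values of 0.0222 to 0.394. Slc2a4 ran from 0.15 to 0.52. Signs turned only when muscles were left out: Irs2 ran from -0.030 to 0.113, Pik3r1 from -0.0063 to 0.140 and Pik3ca from -0.013 to 0.046. Insr, Irs1, Akt1 and Akt2 kept their signs, but all lay at the floor, where signal over background limits the comparison.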
